A study of Mus musculus with 12 samples.

Results

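A set of miRNAs with known links to iron genes, hypoxia or red blood cells was followed in the exosomes of mouse granulosa cells. The set holds the entries mmu-miR-210-3p, mmu-miR-22-3p, mmu-miR-194-5p, mmu-miR-122-5p and mmu-miR-451a and every entry whose name starts with mmu-miR-486a. It has 7 of the 637 entries counted, since miR-486a is present as mmu-miR-486a-3p and as an entry that joins mmu-miR-486a-5p with mmu-miR-486b-5p, here called miR-486a/b-5p. All 7 were among the 547 entries tested.

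A miRNA guides an Argonaute protein to messenger RNAs that pair with its seed, bases 2 to 8 from the 5′ end, and lowers their output. Part of a cell's miRNA leaves in vesicles such as exosomes, and granulosa cells are the somatic cells around the oocyte. miR-122 is the dominant miRNA of hepatocytes and is known to act on Hfe and hemojuvelin, which set hepcidin and with it systemic iron. miR-451a and miR-486a are abundant in red cells, and miR-451a is made without Dicer, by Argonaute 2 cutting its hairpin. miR-210 is induced by the hypoxia-inducible factors and represses Iscu, a scaffold protein for iron-sulphur clusters. miR-22 has been linked to the transferrin receptor and to hypoxia signalling, and miR-194 to the iron exporter ferroportin.

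The mature sequences of the 4 members that matched the RefSeq table (GRCm38.p6) are shown to compare their seeds, which are in capitals. Of all 637 entries, 547 matched.

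mmu-miR-22-3p: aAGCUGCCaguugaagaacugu
mmu-miR-451a: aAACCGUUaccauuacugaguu
mmu-miR-194-5p: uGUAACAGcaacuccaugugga
mmu-miR-210-3p: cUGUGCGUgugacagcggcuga

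Each of these seeds was found in 1 matched entry only, so the 4 share no seed with each other or with the other matched entries. The entries without a match, miR-122-5p and the miR-486a entries among them, were not compared. miR-22-3p lies at chr11:75463772-75463793 on the + strand, within the non-coding gene Mir22hg. miR-451a lies at chr11:78073186-78073207 on the + strand, where the annotation also places Mir451b, and Mir144 ends 99 bases before Mir451a on the same strand. miR-210-3p lies at chr7:141221407-141221428 on the - strand, outside the other genes in the table. miR-194-5p comes from a pair of loci, at chr1:185313325-185313346 within Iars2 and at chr19:6264658-6264679, both on the + strand. Mir215 is 195 bases from Mir194-1, and Mir192 is 115 bases from Mir194-2. The hairpin of miR-451a is shown because its capitals, the mature miRNA at bases 17 to 38 of 72, run from the 5′ stem across the loop, the form that Argonaute 2 cuts.

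Mir451a hairpin: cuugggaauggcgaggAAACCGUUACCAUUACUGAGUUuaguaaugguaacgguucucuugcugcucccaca

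The sequencing covered 12 libraries, 3 in each of 4 groups. Mouse granulosa cells were held for 24 h in medium free of exosomes, and exosomes were then collected from 48 h of culture. CON was left untreated, and the other 3 groups were all given ferric citrate, an iron salt, at 100 μM. It was given alone in FAC, with 100 μM of the iron chelator deferoxamine mesylate in DFO, and with 200 μM VITE (vitamin E, a lipid antioxidant) in VE. The labels do not say whether the 3 libraries of a group came from separate cultures. All p-values here rest on the spread between these libraries only, which may be technical. In edgeR this spread was pooled over entries of like abundance, so its p-values and standard errors do not measure an entry's own scatter.

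Levels are given as counts, the reads counted on an entry, and as CPM, counts scaled to the miRNA total of a library with TMM factors. The libraries held 452021 to 7565362 miRNA counts each out of 22631206 to 24845945 reads, and 3 counts, taken as the floor of detection, came to between 0.351 and 7.90 CPM. miRNAs made up 3.28% ± 1.55 (SD, n = 3) of the reads in CON and 24.7% ± 4.96 in FAC, a difference that CPM removes. Of 7 granulosa marker miRNAs, 6 were in the table with a summed level of 71.7 to 724 CPM, and their counts were uneven. mmu-miR-224-5p had 25 to 3832 counts in all 12 libraries, mmu-miR-132-3p and mmu-miR-503-5p had counts in 10 each, and mmu-miR-202-3p, mmu-miR-212-3p and mmu-miR-202-5p in 4, 2 and 1. The stroma markers mmu-miR-143-3p and mmu-miR-145a-5p summed to 31005 to 108755 CPM in CON, 36927 to 66432 in FAC, 23602 to 43865 in DFO and 13913 to 20722 in VE. The VE libraries were thus below all others for these markers, in the group where several members are higher, and their part in the members' levels was not tested. In exosomes, less secretion of a miRNA and fewer vesicles that carry it cannot be told apart.

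The members ranged from 0 to 671856 counts in a library. miR-122-5p and miR-486a/b-5p were among the most counted of all 637 entries, with ranks of 1 to 6 and 1 to 13 in the single libraries. miR-22-3p, miR-451a and miR-486a-3p had counts in all 12 libraries, with ranks of 33 to 77, 24 to 207 and 42 to 164. miR-194-5p and miR-210-3p had more than 3 counts in 4 and in 2 of the 12 libraries. The widest 95% Wilson interval of a share in a single library spanned 0.183 percentage points, for miR-122-5p, and intervals and floors cover only the error of counting, as PCR copies are not separate molecules.

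**Figure D1:**
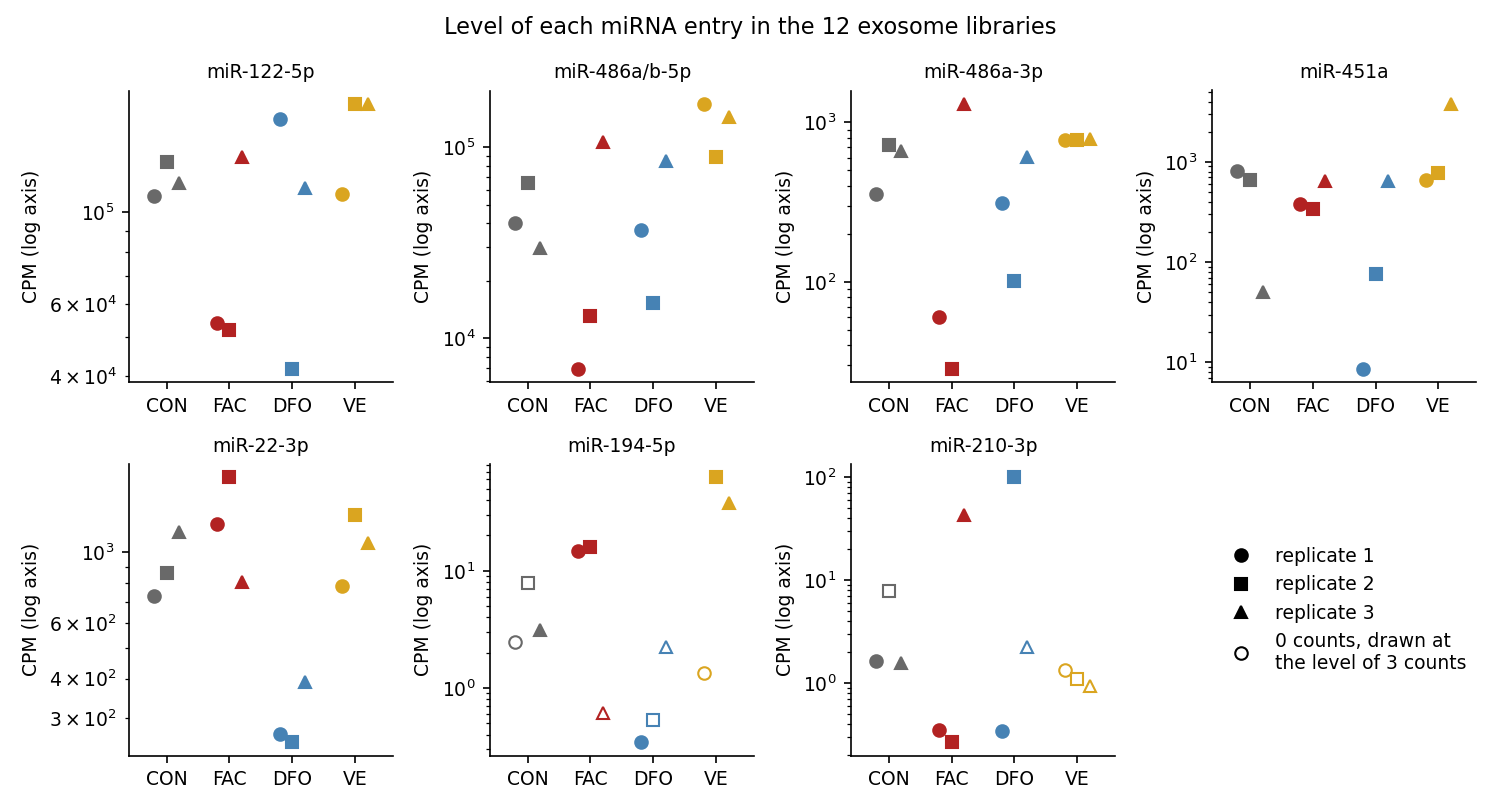
Level of the 7 entries in CPM (log axis, 1 panel each) in the CON, FAC, DFO and VE libraries; point shapes give the replicate number, and open points are libraries with 0 counts drawn at their level of 3 counts. The 3 VE libraries lay above the 3 CON libraries for miR-486a/b-5p, the 3 DFO libraries lay below all others for miR-22-3p, and miR-194-5p and miR-210-3p were near or under the floor in most libraries.

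Together the 7 entries took 15.2% ± 1.61 (SD, n = 3) of the miRNA counts in CON, 13.0% ± 8.19 (SD, n = 3) in FAC, 15.2% ± 7.50 (SD, n = 3) in DFO and 27.9% ± 2.19 (SD, n = 3) in VE. The share in the single VE libraries was 28.0%, 25.6% and 30.0%. The next highest library was FAC replicate 3 with 22.4%, and the lowest were DFO replicate 2, FAC replicate 1 and FAC replicate 2 with 6.59%, 7.06% and 9.62%. Almost all of this share was miR-122-5p and miR-486a/b-5p, so it says little of the other members.

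**Figure D2:**
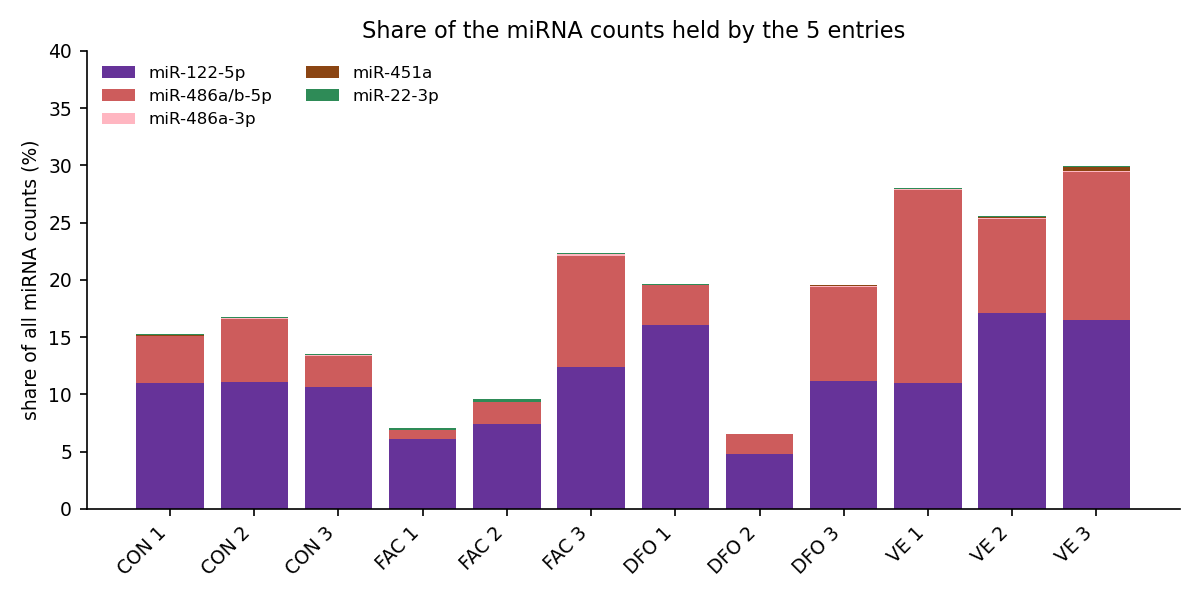
Share of all miRNA counts (%, axis from 0) held by the 5 entries with counts in every library, stacked for each of the 12 libraries. The stacks are highest in VE, at 25.6% to 30.0%, and consist almost wholly of miR-122-5p and miR-486a/b-5p.

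miR-486a/b-5p was higher in VE than in FAC and in CON. The hairpins of miR-486a and miR-486b lie on opposite strands of 1 locus in Ank1, the gene of an erythrocyte ankyrin, and the files do not part their 5p arms. The counts were 49003, 24700 and 18800 in the CON replicates, 58940, 97897 and 523926 in FAC, 106527, 85609 and 113483 in DFO and 374006, 242992 and 457271 in VE. In CPM these were 40137, 65029 and 29562 in CON, 6903, 13073 and 106408 in FAC, 36701, 15350 and 85175 in DFO and 168935, 88569 and 143712 in VE. All VE libraries were above all CON libraries, while FAC replicate 3 lay inside the VE range. FAC replicates 1 and 2 and DFO replicate 2 were the 3 lowest libraries.

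Between VE and FAC the log2 fold change of miR-486a/b-5p was 1.67 (standard error 0.39, adjusted p = 0.00453 in edgeR's quasi-likelihood test), with the VE library higher in 8 of 9 pairs of libraries. Between VE and CON it was 1.57 (standard error 0.39, adjusted p = 0.00821 in edgeR), higher in 9 of 9 pairs. An exact permutation test of the mean log2 CPM gave p = 0.2 and p = 0.1, where 0.1 is the smallest that 3 against 3 libraries allow. Between FAC and CON (log2 fold change -0.09, adjusted p = 0.947) and between DFO and FAC (0.12, adjusted p = 0.897) edgeR found no difference past the threshold. DESeq2 on the 12 libraries gave log2 fold changes of 1.71 and 1.36 for VE against FAC and CON with adjusted p of 0.333 and 0.415. With FAC replicates 1 and 2 and VE replicates 1 and 3 left out in turn, the adjusted p for VE against FAC in edgeR was 0.377, 0.184, 0.196 and 0.101, and the log2 fold change lay between 1.11 (FAC replicate 1 left out) and 3.56 (FAC replicate 3 left out). With CON replicates 1 and 3 and VE replicates 1 and 3 left out in turn, the adjusted p for VE against CON was 0.0644, 0.188, 0.137 and 0.0973.

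The 3p arms are cut from the same hairpins and are usually the less stable strand. miR-486a-3p had 436, 276 and 418 counts in CON, 516, 213 and 6444 in FAC, 900, 564 and 812 in DFO and 1712, 2132 and 2504 in VE. In CPM the VE libraries were close together, at 773, 777 and 787, against 357, 727 and 657 in CON and 60.4, 28.4 and 1309 in FAC. The VE range lay above the CON range, with VE higher in 9 of 9 pairs of libraries. The log2 fold change of 0.43 (standard error 0.85, adjusted p = 0.992 in edgeR) did not pass the threshold, and no other comparison did in edgeR. That standard error was set by entries of like abundance, not by the scatter of miR-486a-3p. Relative to miR-486a/b-5p, miR-486a-3p was at 0.218% to 2.22% and miR-486b-3p at 0.191% to 1.63% over the 12 libraries. miR-486b-3p had 227, 295 and 56.6 CPM in CON, 77.4, 213 and 316 in FAC, 256, 200.1 and 1166 in DFO and 1388, 241 and 1235 in VE. It was past the threshold in VE against FAC (log2 fold change 2.24, standard error 0.92, unadjusted p = 0.0146, adjusted p = 0.42) and in VE against CON (2.31, standard error 0.92, unadjusted p = 0.0121, adjusted p = 0.289 in edgeR), although VE replicate 2 lay inside the range of both groups.

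miR-451a was also higher in VE, but 1 library decided the size, and on the RPM scale it did not pass the threshold against FAC (log2 fold change 0.20, unadjusted p = 0.876 in limma on log2(RPM + 1)). It had 982, 248 and 32 counts in CON, 3267, 2509 and 3166 in FAC, 25, 422 and 861 in DFO and 1465, 2136 and 12085 in VE. In CPM these were 804, 653 and 50.3 in CON, 383, 335 and 643 in FAC, 8.61, 75.7 and 646 in DFO and 662, 779 and 3798 in VE. VE replicate 3 stood apart from the other 11 libraries, and DFO replicate 1 and CON replicate 3 were the lowest.

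The log2 fold change of miR-451a was 1.94 in VE against FAC (standard error 0.83, unadjusted p = 0.0185, adjusted p = 0.444 in edgeR) with all VE libraries above all FAC libraries. It was 1.80 in VE against CON (standard error 0.82, unadjusted p = 0.0289, adjusted p = 0.46 in edgeR), where the groups overlapped. Both passed the fold and p threshold and neither passed the adjustment. Without VE replicate 3 the log2 fold changes were 0.67 (unadjusted p = 0.513) and 0.52 (unadjusted p = 0.612 in edgeR). The call for VE against FAC was also lost without FAC replicate 1 or 2, and that for VE against CON without CON replicate 3 (unadjusted p = 0.0698, 0.0691 and 0.123 in edgeR). In DFO the level was 244 ± 350 CPM (SD, n = 3) against 454 ± 166 in FAC, and this difference did not pass the threshold (log2 fold change -0.90, unadjusted p = 0.264 in edgeR).

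miR-144-3p, the neighbour of miR-451a in 1 primary transcript and a defining miRNA of red cells, had 1 count over the 12 libraries, in DFO replicate 3, beside 27198 counts of miR-451a. Of the blood markers that are not members, miR-150-5p had 4 to 532 counts in all 12 libraries, miR-142a-5p up to 192 counts in 4 libraries, miR-223-3p 17 counts in 1 library and miR-142a-3p 1 count in 1 library. The 5 such markers, miR-144-3p included, summed to 1.81 to 368 CPM. miR-451a was 0.0235% to 5.54% of miR-486a/b-5p, a ratio that differed widely between libraries of 1 group, from 0.604% to 5.54% in FAC. The part of blood RNA in the members' levels was not tested.

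**Figure D3:**
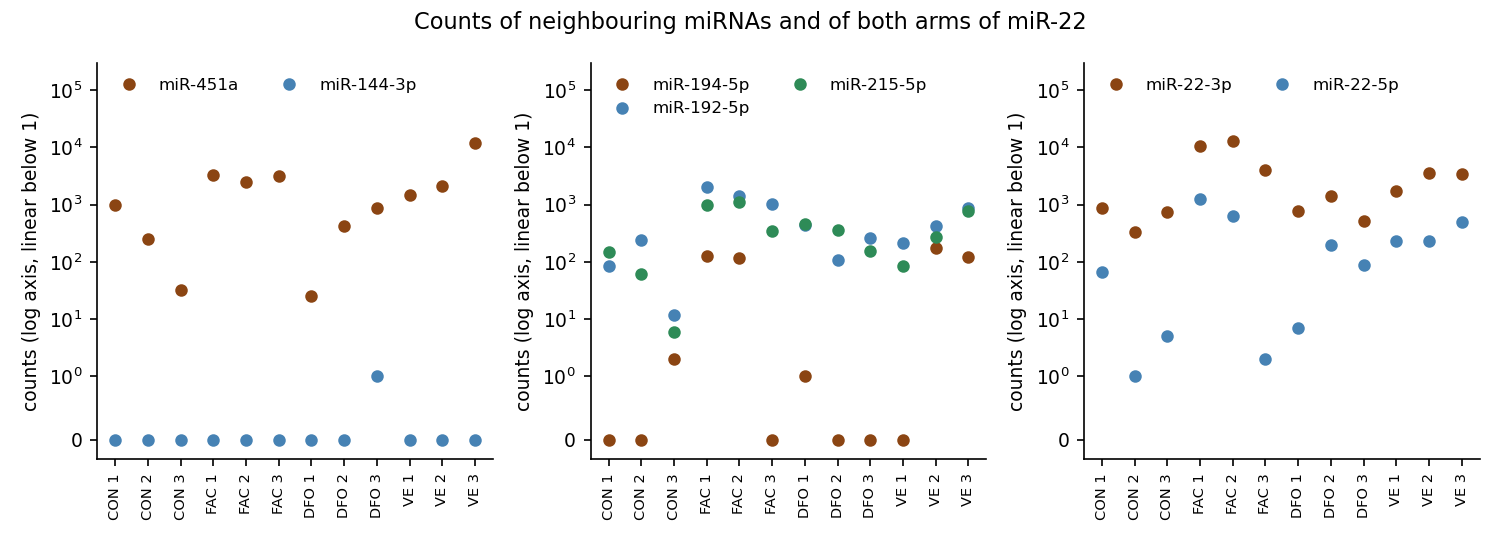
Counts (log axis, linear below 1) in the 12 libraries of miR-451a with its neighbour miR-144-3p, of miR-194-5p with miR-192-5p and miR-215-5p, and of both arms of miR-22. miR-144-3p sits at 0 in 11 libraries where miR-451a has 25 to 12085 counts, and miR-194-5p is at 0 in libraries with counts of both its neighbours.

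miR-122-5p was the most counted entry in FAC replicate 3, VE replicate 2 and VE replicate 3. Its counts were 133507, 50217 and 74859 in CON, 460599, 388600 and 671856 in FAC, 488334, 232693 and 152944 in DFO and 245618, 503111 and 582743 in VE. In CPM the CON libraries lay close together, at 109352, 132208 and 117710.5. The others were at 53944, 51893 and 136452 in FAC, 168241, 41724 and 114792 in DFO and 110943, 183380 and 183145 in VE. FAC replicates 1 and 2 and DFO replicate 2 were the lowest of the 12, the same 3 libraries that were lowest for miR-486a/b-5p.

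miR-122-5p was past the threshold in VE against FAC (log2 fold change 0.98, standard error 0.35, unadjusted p = 0.00519, adjusted p = 0.284 in edgeR), higher in 8 of 9 pairs of libraries. Leaving out FAC replicate 1 or 2 ended the call (unadjusted p = 0.0625 and 0.0709), while leaving out FAC replicate 3 gave an adjusted p of 0.000432 in edgeR. DESeq2 gave a log2 fold change of 0.95 with an unadjusted p = 0.118. FAC against CON gave -0.57 (standard error 0.35, unadjusted p = 0.102), DFO against FAC 0.42 (unadjusted p = 0.224), DFO against CON -0.15 (unadjusted p = 0.674) and VE against CON 0.41 (unadjusted p = 0.237 in edgeR), and these did not pass the threshold. The spread within FAC and within DFO was larger than the distance between their means, at 80763 ± 48239 and 108252 ± 63511 CPM (SD, n = 3).

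The other arm, miR-122-3p, had 4 counts in FAC replicate 1 and 0 elsewhere. miR-122b-3p, counted from the strand opposite to miR-122 and named after its values were seen, was at 8.01% to 13.0% of miR-122-5p in every library. Its level followed miR-122-5p with a Spearman coefficient of 0.93 over the 12 libraries. The sources used here do not state whether the counting used strand, so reads of both strands cannot be told apart. Of the liver markers that are not members, miR-192-5p was at 18.9 to 632 CPM.

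In CPM, miR-22-3p was lower in DFO than in every other library, while in RPM it was not lower than in CON. Its counts were 891, 327 and 739 in CON, 10472, 12905 and 3962 in FAC, 776, 1406 and 522 in DFO and 1740, 3590 and 3414 in VE. In CPM it was at 729.8, 861 and 1162 in CON, 1226.5, 1723 and 805 in FAC, 267, 252 and 392 in DFO and 786, 1309 and 1073 in VE. The highest DFO library, at 392 CPM, was below the lowest of the other 9, at 729.8 CPM, and the other 3 groups overlapped. This held for 6 of the 547 tested entries (1.10%), which were miR-22-3p, miR-10a-5p, miR-148a-3p, miR-24-3p, miR-292a-5p and miR-652-3p. These names were chosen after seeing their values, because they are few.

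Between DFO and FAC the log2 fold change of miR-22-3p was -2.04 (standard error 0.80, unadjusted p = 0.0104, adjusted p = 0.189 in edgeR), and between DFO and CON it was -1.60 (standard error 0.79, unadjusted p = 0.0424, adjusted p = 0.641 in edgeR). Both were past the fold and p threshold and not past the adjustment. DESeq2 gave adjusted p of 0.00232 and 0.0201 for them. The first held with each library left out in turn (unadjusted p of 0.00488 to 0.0415 in edgeR). The second was lost without CON replicate 3 (unadjusted p = 0.0794), DFO replicate 1 (0.0700) or DFO replicate 2 (0.102 in edgeR). FAC against CON (log2 fold change 0.45, standard error 0.77) and VE against CON (0.20, standard error 0.77) did not pass the threshold in edgeR. The other arm, miR-22-5p, ranged from 1 to 1232 counts and from 0.0505% to 17.0% of miR-22-3p, and no comparison of it passed the threshold.

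miR-210-3p was close to absent but for 2 libraries. It had 2, 0 and 1 counts in CON, 3, 2 and 209 in FAC, 1, 552 and 0 in DFO and 0 in all 3 VE libraries. FAC replicate 3 was at 42.4 CPM and DFO replicate 2 at 99.0 CPM, and no other library was above 1.64 CPM. In VE the 3 libraries allowed a mean level of up to 1.13 CPM at 3 counts each. FAC replicates 1 and 2 lay below that level, at 0.351 and 0.267 CPM, and the FAC mean was 14.4 CPM. By this floor the FAC mean was at least 12.7-fold the VE mean (unadjusted p = 0.0217, adjusted p = 0.444 in edgeR), past the fold and p threshold. This call rested on FAC replicate 3, without which the unadjusted p in edgeR was 0.233. With each VE library left out in turn it was 0.0545 to 0.0604.

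miR-194-5p had 0, 0 and 2 counts in CON, 126, 119 and 0 in FAC, 1, 0 and 0 in DFO and 0, 172 and 120 in VE. In CPM it was at 14.8 and 15.9 in 2 FAC libraries and at 62.7 and 37.7 in 2 VE libraries, and at or under the floor in the other 8. No comparison passed the threshold in edgeR (unadjusted p = 0.306 in FAC against CON, 0.0836 in DFO against FAC, 0.552 in VE against FAC, 0.371 in DFO against CON and 0.144 in VE against CON). FAC and VE each had 1 library without a count, so both overlapped with CON and DFO. The floor of 3 counts, at most 7.90 CPM in any library, lay below the 4 high values.

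The neighbours of miR-194 are miR-192 and miR-215, which share 1 seed with each other and not with miR-194-5p. Their sequences are shown to compare this seed, in capitals, with that of miR-194-5p above.

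mmu-miR-192-5p: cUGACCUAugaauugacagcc
mmu-miR-215-5p: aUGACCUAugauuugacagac

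miR-192-5p had counts in every library, from 12 to 2030, and miR-215-5p from 6 to 1120. In the 8 libraries where miR-194-5p was at or under 3 counts, both neighbours had 6 to 1043 counts. miR-215-3p had 19 and 116 counts in FAC replicates 2 and 3 and 1 in DFO replicate 2. miR-194-2-3p had 175 counts in VE replicate 1 and 0 elsewhere, and passed the threshold in VE against FAC on that library (unadjusted p = 0.0201, adjusted p = 0.444 in edgeR). miR-192-5p and miR-215-5p passed it in 0 of the 5 comparisons.

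Counted by comparison, 0 of the 7 members were past the fold of 1.5 and the unadjusted p of 0.05 in FAC against CON, where 9.51% of the 547 tested entries were, and 0 passed the adjusted p of 0.05 (0.183% of all). In that comparison the smallest unadjusted p of a member was 0.102 in edgeR, for miR-122-5p, and DESeq2 gave 0, with no p for miR-451a and miR-210-3p. RLE factors gave 1 member (miR-122-5p) and RPM 4. With FAC replicate 3 left out there were 3 members, all lower in FAC, which were miR-122-5p (log2 fold change -1.16, adjusted p = 0.00509), miR-486a-3p (-3.69, adjusted p = 0.038) and miR-486a/b-5p (-2.15, adjusted p = 3.71e-07 in edgeR). The share of all tested entries is not given for that fit. In DFO against FAC, 1 member was lower (miR-22-3p) beside 12.2% of all tested entries, with 0 after adjustment (0.914% of all). In VE against FAC, 3 members were higher (miR-122-5p, miR-451a and miR-486a/b-5p) and 1 lower (miR-210-3p) beside 9.32% of all, with 1 after adjustment (0.366% of all). In DFO against CON, 1 was lower (miR-22-3p) beside 7.68%, with 0 after adjustment (0.548%). In VE against CON, 2 were higher (miR-451a and miR-486a/b-5p) beside 10.4%, with 1 after adjustment (2.01%).

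The count of 4 in VE against FAC was 0 in DESeq2 and in limma on log2(RPM + 0.1), beside 60 and 97 entries past the threshold. DESeq2 gave no p for miR-451a and miR-210-3p, so it could not keep these members. The count was 1 with filterByExpr, which removed miR-210-3p, and in limma on log2 CPM, beside 36 and 52 entries. In limma on log2(RPM + 1) none of the 4 was kept. The 1 member past the threshold there was miR-22-3p, lower in VE (log2 fold change -1.53, unadjusted p = 0.0233 in limma). The median log2 fold change of the 7 members was -0.09, -0.45, 0.98, -0.77 and 0.43 in FAC against CON, DFO against FAC, VE against FAC, DFO against CON and VE against CON, and that of all tested entries 1.38, -0.66, -0.63, 0 and 0. The medians of all tested entries depend on the filter on low counts. With filterByExpr they were 0.079, 0.168, 0.0016, -0.0067 and -0.035, so they are a poor measure to set the members against. For the members, with miR-210-3p at its bound the third median remained 0.98, and without it, since it was under the floor in CON and in VE, the last was 1.00. Without miR-194-5p, under the floor in DFO and in CON, the median for DFO against CON was -0.46. FAC stands in 3 of these comparisons and CON in 3, so they are not independent.

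**Figure D4:**
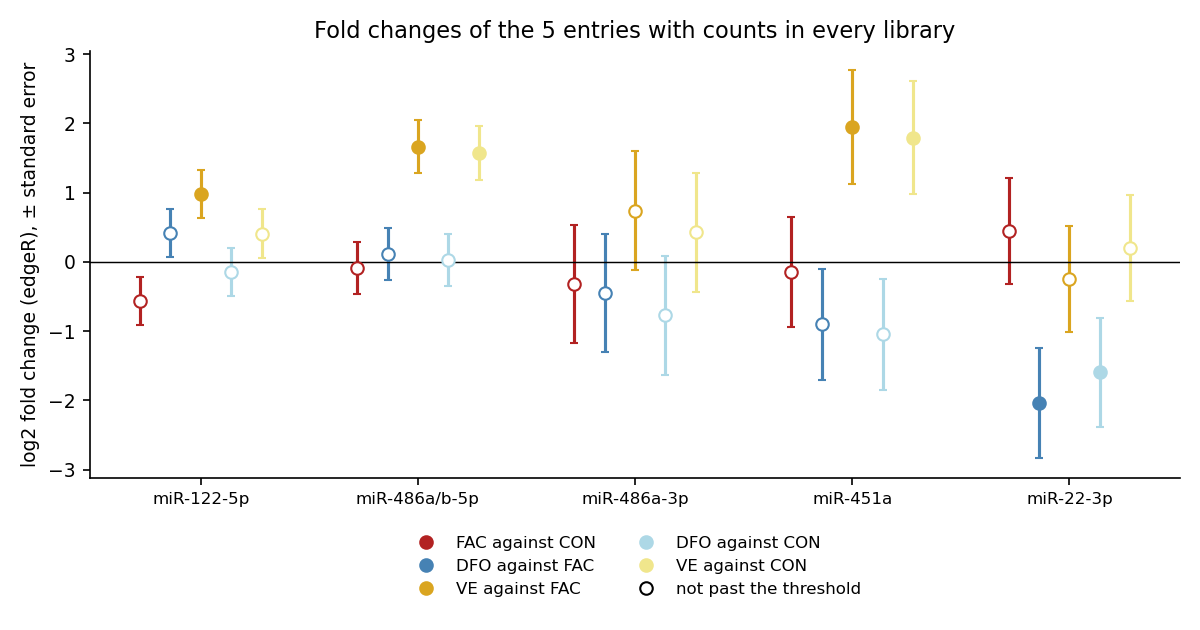
log2 fold change (edgeR, ± standard error) of the 5 entries with counts in every library in the 5 comparisons; filled points passed a fold of 1.5 and an unadjusted p of 0.05. The VE points of miR-486a/b-5p at 1.67 and 1.57 stand more than 4 standard errors from 0, and the DFO points of miR-22-3p at -2.04 and -1.60 between 2 and 3.

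Tested for any difference among the 4 groups, 2 members had an adjusted p under 0.05 beside 4.57% of all tested entries. These were miR-486a/b-5p (adjusted p = 0.000122) and miR-451a (adjusted p = 0.0498 in edgeR's quasi-likelihood F test). The others were at 0.259 or above. The adjusted p of miR-486a/b-5p was 0.269 with filterByExpr, 0.387 in DESeq2, 0.0946 in limma on log2(RPM + 0.1) and 0.54 in limma on log2 CPM, and it was under 0.05 with each library left out in turn. That of miR-451a was 0.046 to 0.54 over the 8 alternatives that gave one, under 0.05 only with no filter on low counts. It was also above 0.05 with FAC replicate 1 or 2, DFO replicate 1 or 2 or VE replicate 2 or 3 left out, and reached 0.643 without VE replicate 3.

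The choice of scale decided several directions. RPM, which scales the counts to all reads of a library, keeps the difference in the miRNA share between groups. On log2(RPM + 1), FAC was above CON for miR-122-5p (log2 fold change 2.60, adjusted p = 0.00565 in limma), miR-22-3p (3.67, adjusted p = 0.00229), miR-451a (3.54, adjusted p = 0.0613) and miR-486a/b-5p (2.31, adjusted p = 0.0371), where CPM gave -0.57, 0.45, -0.15 and -0.09. The median over all tested entries on that scale was 0.957. In VE against CON, miR-486a/b-5p was higher on both scales, at 14776 ± 4464 RPM (SD, n = 3) against 1291 ± 654 RPM. In VE against FAC it was not past the threshold on the RPM scale (log2 fold change 1.27, unadjusted p = 0.102 in limma with a pseudocount of 1 and 0.207 with 0.1). The VE against FAC difference of miR-451a fell to 0.20 (unadjusted p = 0.876 and 0.894 in limma), and that of miR-122-5p turned to -0.23. miR-22-3p was lower in DFO than in FAC on both scales, at 36.7 ± 18.6 RPM (SD, n = 3) against 373 ± 192, but it was not lower than in CON, at 27.0 ± 11.4 RPM.

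Other miRNAs tied to the same processes were counted by lists, to be read beside 9.51%, 12.2%, 9.32%, 7.68% and 10.4% of all tested entries past the threshold in FAC against CON, DFO against FAC, VE against FAC, DFO against CON and VE against CON. Of 9 measured miRNAs linked to iron genes, 0 passed the threshold in FAC against CON, 1 was lower in DFO against FAC, 1 lower in VE against FAC, 2 higher and 1 lower in DFO against CON and 1 higher and 2 lower in VE against CON. Of 5 linked to hypoxia, 1 was lower in VE against FAC and 0 passed in the other comparisons. Of 6 tested miRNAs linked to red cell formation, 1 was higher in FAC against CON and 2 were lower in DFO against FAC, with 0 in the others. Of 6 tested other arms and neighbours of the members, 2 were higher in VE against FAC and 1 in VE against CON. After adjustment 1 of these lists' members remained, miR-148a-3p, in DFO against FAC and in DFO against CON.

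miR-148a-3p, which has been linked to the transferrin receptor, was at 135146 ± 72674 CPM (SD, n = 3) in FAC and 88295 ± 11199 in CON and was lower, at 32552 ± 11733, in DFO. The log2 fold change was -2.05 against FAC (adjusted p = 3.26e-05) and -1.44 against CON (adjusted p = 0.0401 in edgeR). The adjusted call against FAC was lost in limma on log2(RPM + 0.1) (0.0744) and on log2 CPM (0.213). That against CON was lost with no composition factor (0.0508), filterByExpr (0.456) and limma on log2 CPM (0.802), and with each CON library and DFO replicates 1 and 2 left out in turn (0.149 to 0.386). On log2(RPM + 1) its direction turned, with a log2 fold change of 0.53. Like miR-22-3p, it was lower in CPM in the 3 DFO libraries than in the other 9. miR-24-3p, known to act on the activin receptor Acvr1b in red cell precursors, showed the same order, with 745 to 1064 CPM in DFO and 1951 to 4345 in FAC (log2 fold change -1.95, unadjusted p = 0.00387, adjusted p = 0.125 in edgeR). miR-221-3p, which acts on Kit in red cell precursors, was at 224 to 879 CPM in FAC, 39.3 to 187 in CON and 17.8 to 337 in DFO. It was higher in FAC than in CON (log2 fold change 2.74, adjusted p = 0.212) and lower in DFO than in FAC (-2.32, adjusted p = 0.317 in edgeR), both by the unadjusted threshold.

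let-7d-5p, which has been linked to the iron importer Slc11a2, was at 173 to 554 CPM in DFO and 29.9 to 68.8 in CON (log2 fold change 2.90, unadjusted p = 0.0146, adjusted p = 0.52 in edgeR), with no overlap. It was at 81.3 to 271 CPM in VE, also above all CON libraries, and at 45.9 to 272 in FAC. miR-155-5p, linked to hypoxia and inflammation, had 90 to 311 counts in the FAC libraries, 1 to 2 in CON and 0 in all VE libraries (unadjusted p = 0.0179, adjusted p = 0.444 in edgeR for VE against FAC). miR-20a-5p, miR-200a-3p and miR-200b-3p passed the threshold in VE against CON on 1 library each, with 125 counts in VE replicate 1, 55 in CON replicate 1 and 102 in CON replicate 1, and no other library of those groups was above 1 count. miR-20a-5p also passed it in DFO against CON, with 110, 1 and 66 counts in DFO and 0 in CON.

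Across the 12 libraries, the entry closest to each member was named by the Spearman coefficient of log2 CPM among 223 entries with counts in at least 9 libraries. For miR-486a/b-5p these were miR-486a-3p (0.89) and miR-486b-3p (0.88), its own opposite arms, and for miR-122-5p they were miR-122b-3p (0.93) and miR-486a-3p (0.75). For miR-22-3p they were miR-30a-3p (0.84) and miR-3074-5p (0.83), and for miR-451a miR-375-3p (0.84) and miR-574-3p (0.78). Between members, miR-122-5p and miR-486a/b-5p had a coefficient of 0.62 and miR-451a and miR-486a/b-5p of 0.67, while miR-22-3p was at -0.14 to 0.15 with the others. The Pearson coefficients of these first pairs were 0.79 and 0.47. For miR-22-3p the Pearson coefficient was 0.52 with miR-451a and -0.07 to 0.05 with miR-122-5p and the miR-486a entries. These values share the libraries, their depth and the 4 groups, and are given as a description.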

How the data were processed

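Small RNA of exosomes, prepared by steps of centrifugation and extracted with the exoEasy Maxi kit, was read on an Illumina HiSeq 2500 (15 to 41 bp). For each library the authors deposited raw counts per miRNA entry and the same values as RPM, scaled to all reads of the library, under the name TPM. The submitters' processing notes name the build mm9. The aligner, the miRNA database and the strand setting are not given in the sources used here. Entries were taken as the files name them, and those joining 2 miRNAs were kept as 1 entry.

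Counts were tested with edgeR 4.0.16 (quasi-likelihood test, TMM, all 4 groups in 1 fit, no covariate) in R 4.3.3 for 547 entries, those that summed to 10 counts or more across all 12 libraries. The threshold was the study's fold of 1.5 and p of 0.05, taken as unadjusted, with the Benjamini-Hochberg adjusted p over all 547 entries beside it. edgeR assigned all entries of 1 abundance the same spread (common biological coefficient of variation 1.57), so an entry's own scatter did not enter its p. The script was tested on simulated counts. Alternatives were DESeq2 1.42.0, limma 3.58.1 on log2(RPM + 1) and log2(RPM + 0.1), other scalings and filters, a replicate block and each library left out. limma on log2 CPM with a prior count of 2 and the alternatives of the 4-group test were added after seeing the data. No library repeated another within sampling noise (66 pairs, chi-square over its degrees of freedom of 102 or more).

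The members, the lists and the rules for naming entries were chosen with earlier results of these data known. Named were the members, their other arms and neighbours, up to 8 entries of the lists past the threshold by smallest p, and the 2 nearest entries of each member with counts in at least 9 libraries. Sequences were read from RefSeq (GRCm38.p6) and matched by name, and no coordinate was converted between builds. miR-122 and miR-486a had no entry in that table.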

Additional observations from a re-analysis of the deposited data

How the results depend on the processing

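Over the alternatives that kept all 12 libraries, 259 of 343 results on single members kept their direction and side of the threshold, 27 lost the threshold, 20 gained it and 37 changed sign. Results without a p, as for miR-451a and miR-210-3p in DESeq2, were counted as not past the threshold. Some of those listed as lost or kept were thus not tested. Most sign changes came with RPM, which does not remove the difference in miRNA share. miR-22-3p stayed past the fold and p threshold in DFO against FAC under all 10 of these alternatives (adjusted p of 0.00232 to 0.224), and miR-486a/b-5p under 7 in VE against FAC (adjusted p of 0.000149 to 0.491) and 8 in VE against CON (0.000435 to 0.722). In the 4-group test miR-451a was the member lost with RLE factors, no composition factor and the replicate block, while in DESeq2 and on log2(RPM + 0.1) both were lost and miR-22-3p passed. DESeq2 gave no p for miR-451a and miR-210-3p, and filterByExpr removed miR-210-3p.

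For values with RLE factors, 1 member was past the threshold in FAC against CON, 2 in DFO against FAC and 1 in the 4-group test, and the log2 fold change was -0.0445 for miR-486a/b-5p in DFO against CON and -0.0982 for miR-22-3p in VE against CON. With no composition factor, 0 members were past it in DFO against CON and 1 in the 4-group test, and FAC against CON gave 0.0917 for miR-451a and 0.0169 for miR-486a/b-5p. DESeq2 gave 2 members in DFO against FAC, 0 in VE against FAC, 0 in VE against CON and 1 in the 4-group test, with -0.0445 for miR-486a/b-5p in DFO against CON and -0.0973 for miR-22-3p in VE against CON. In DESeq2, 85 entries were past the threshold in DFO against FAC, 60 in VE against FAC and 65 in VE against CON. With only the compared groups in the fit, 2 members were past the threshold in VE against FAC, beside 67 entries, and 0 in DFO against CON, beside 25. In these fits miR-486a/b-5p was at -0.0669 in DFO against FAC and -0.0414 in DFO against CON. filterByExpr gave 1 member in VE against FAC, 1 in VE against CON and 0 in the 4-group test, and -0.000851 for miR-486a/b-5p in DFO against CON. Of the entries it kept, 36 were past the threshold in VE against FAC and 36 in VE against CON.

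limma on log2(RPM + 1) gave 4 members in FAC against CON, 2 in DFO against FAC, 1 (miR-22-3p) in VE against FAC, 2 in DFO against CON and 6 in VE against CON. On log2(RPM + 0.1) these were 4, 3, 0, 0 and 6, and 1 in the 4-group test. Log2 fold changes with these 2 pseudocounts in FAC against CON were 2.60 and 2.60 for miR-122-5p, 3.54 and 3.82 for miR-451a, 1.22 and 1.23 for miR-486a-3p and 2.31 and 2.31 for miR-486a/b-5p. In DFO against FAC they were -0.94 and -0.94 for miR-122-5p and -0.52 and -0.52 for miR-486a/b-5p, with -0.0433 for miR-210-3p under the second only, and in VE against FAC -0.23 and -0.23 for miR-122-5p. In DFO against CON they were 1.66 and 1.66 for miR-122-5p, 0.41 and 0.42 for miR-22-3p, 0.0686 and 0.0369 for miR-451a and 0.92 and 0.96 for miR-486a-3p. limma on log2 CPM, added after seeing the data, gave 1 member in VE against FAC, 0 in VE against CON and 0 in the 4-group test, with 0.54 for miR-451a in FAC against CON, 1.02 for miR-486a-3p in DFO against FAC and -0.23 for miR-486a/b-5p in DFO against CON.

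Libraries with the same number did not deviate together on average (mean correlation 0.00421 over 18 pairs, against -0.00202 over 36 pairs with different numbers). This mean cannot show whether they shared a culture or a batch, and the labels give only the number. With the replicate block, 1 member (miR-486a/b-5p) was past the threshold in FAC against CON, 2 in VE against FAC, 2 in DFO against CON, 1 in VE against CON and 1 in the 4-group test. The log2 fold change was 0.38 for miR-486a-3p in DFO against FAC and -0.51 for miR-486a/b-5p in DFO against CON. The adjusted p of miR-148a-3p in DFO against CON was then 0.192.

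With each library left out in turn, 0 to 3 members were past the threshold in FAC against CON, 1 to 4 in DFO against FAC, 2 to 4 in VE against FAC, 0 to 2 in DFO against CON, 1 to 2 in VE against CON and 1 to 3 in the 4-group test. The highest counts in FAC against CON and DFO against FAC came without FAC replicate 3. The share of all tested entries is not given for these fits, nor for the 4-group test under the alternatives. Those counts describe the members only. In FAC against CON the log2 fold change ran from -0.59 to 0.37 for miR-451a, -2.15 to 0.30 for miR-486a/b-5p, -3.69 to 0.14 for miR-486a-3p and -1.73 to 4.08 for miR-210-3p. In DFO against FAC it ran from -0.69 to 2.12 for miR-486a/b-5p, -1.18 to 2.90 for miR-486a-3p, -0.16 to 1.12 for miR-122-5p and -5.96 to 6.63 for miR-210-3p. In DFO against CON it ran from -0.79 to 0.44 for miR-486a/b-5p, -0.78 to 0.24 for miR-122-5p, -4.91 to 2.24 for miR-194-5p and -2.35 to 5.47 for miR-210-3p. For the changes listed here the cause was not tested. The CON libraries held the fewest counts, and values near the floor of 3 counts, as for miR-194-5p and miR-210-3p, are the least certain.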
